A study of Mus musculus with 8 samples.

Results

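The 9 genes described here encode the proteins that make, store, take up and break down dopamine: Th, Ddc, Slc18a2, Slc6a3, Gch1, Pts, Spr, Qdpr and Maoa. They were chosen by name from the 31053 genes of the deposited matrices, and all 9 were found. Their levels were measured by single-cell RNA-seq in SN4741, a mouse line whose cells the labels call neural precursors and wild type. Cells were cultured in 4 libraries at the permissive temperature of 37 °C in 10% serum, and in 4 libraries at the non-permissive temperature of 39 °C in 0.5% serum for 48 hours, the treatment meant to start differentiation. Temperature and serum changed together and cannot be told apart. All 8 libraries carried the same transgene, a heat-sensitive viral T antigen behind a tyrosine hydroxylase promoter whose species the study's text does not give. Per that text the line is polyploid with an unstable karyotype. The cell filters left 18351 of 19125 cells, of which 8550 came from 37 °C and 9801 from 39 °C. The labels do not say whether replicates were separate cultures, so p-values measure only the spread between these libraries.

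Dopamine is made from tyrosine in 2 steps. Th (tyrosine hydroxylase) makes L-DOPA and is the rate-limiting enzyme, and Ddc (aromatic amino acid decarboxylase) turns L-DOPA into dopamine. Slc18a2 (VMAT2) loads dopamine into vesicles, Slc6a3 (the dopamine transporter) takes it back up from outside the cell, and Maoa (monoamine oxidase A) breaks it down at the outer mitochondrial membrane. Th needs the cofactor tetrahydrobiopterin. Gch1 (GTP cyclohydrolase) starts the synthesis of that cofactor, Pts and Spr (sepiapterin reductase) finish it, and Qdpr regenerates it after use. The cofactor also serves other enzymes, such as nitric oxide synthases, and Maoa acts on serotonin and noradrenaline, so these genes are used in many cell types that make no dopamine. Midbrain dopamine neurons are known for high levels of Th, Ddc, Slc18a2 and Slc6a3 together.

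The sequence just before the start of 4 of these genes is given first. That of Th is shown because the gene gave almost no transcripts here while the line's transgene uses a tyrosine hydroxylase promoter. The window is that of the mouse gene in the genome, and whether the transgene holds the same bases is not known here. Those of Gch1, Spr and Qdpr are shown because they are the cofactor genes whose levels passed the test between temperatures. Each is the 250 bases upstream of the RefSeq start on GRCm38.p6, 5′ to 3′ on the strand of the gene, and all 4 genes lie on the minus strand. Capitals mark matches, on either strand, to the cyclic AMP response element TGACGTCA, the GC box GGGCGG, the CCAAT box CCAAT and the TATA box TATAAA. The NBRE element AAAGGTCA, a known binding site of Nr4a factors, was searched as well.
Th, chr7:142899996-142900245: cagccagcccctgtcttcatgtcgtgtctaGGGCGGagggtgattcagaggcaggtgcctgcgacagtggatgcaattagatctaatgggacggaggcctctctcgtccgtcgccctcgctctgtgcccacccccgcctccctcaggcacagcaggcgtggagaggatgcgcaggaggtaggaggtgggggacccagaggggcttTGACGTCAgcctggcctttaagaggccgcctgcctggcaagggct
Gch1, chr14:47189414-47189663: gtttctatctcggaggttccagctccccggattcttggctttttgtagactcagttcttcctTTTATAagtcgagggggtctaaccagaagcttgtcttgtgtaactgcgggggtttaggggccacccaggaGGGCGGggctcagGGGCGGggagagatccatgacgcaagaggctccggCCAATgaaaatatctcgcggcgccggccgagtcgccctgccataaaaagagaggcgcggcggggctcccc
Spr, chr6:85137765-85138014: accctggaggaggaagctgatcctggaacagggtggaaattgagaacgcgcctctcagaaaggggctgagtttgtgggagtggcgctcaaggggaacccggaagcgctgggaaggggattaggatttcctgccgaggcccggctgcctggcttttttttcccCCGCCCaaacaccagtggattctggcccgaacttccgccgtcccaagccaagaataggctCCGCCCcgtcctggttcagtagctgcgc
Qdpr, chr5:45450230-45450479: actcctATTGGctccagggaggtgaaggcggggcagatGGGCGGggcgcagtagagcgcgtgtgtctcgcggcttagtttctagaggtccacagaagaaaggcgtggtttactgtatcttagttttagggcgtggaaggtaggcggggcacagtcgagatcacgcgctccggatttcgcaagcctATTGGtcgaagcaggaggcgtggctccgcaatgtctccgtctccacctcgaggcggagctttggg
The Th window holds the cyclic AMP response element 45 bases before the start, which 1.55% of all 32851 windows of this length hold, and a GC box 220 bases before it. GC boxes stand in 32.7% of all windows, CCAAT boxes in 33.8%, TATA boxes in 12.4% and NBRE elements in 1.34%. Gch1 has 2 GC boxes, a CCAAT box 70 bases before its start and a reversed TATA box 188 bases before it. Spr has 2 GC boxes on the opposite strand, and Qdpr has 1 GC box and 2 reversed CCAAT boxes. These 4 windows have 59.2 to 64.4% GC, against a median of 52.4% over all windows, and 13 to 21 CpG sites, against a median of 6. The upper quartiles over all windows were 61.2% GC and 16 CpG sites. Only Th lay above the first, and only Gch1 and Qdpr above the second. The NBRE element is in none of these 4 windows, and among the 9 genes it was found only for Ddc, 73 bases before its upstream start and overlapping a TATA match. A match of letters is a description and no evidence of binding.

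The kept cells gave 17166686 to 29633818 unique molecular identifiers (UMIs, each standing for 1 captured transcript molecule) per library. Median UMIs per cell ran from 6676 to 16665, both extremes at 39 °C: replicate 1 there had 985 deep cells and replicate 4 had 3494 shallow ones. The median mitochondrial share was 7.55 to 7.89% at 37 °C and 8.04 to 8.85% at 39 °C. Any pair of libraries shared at most 5 cell barcodes. Of the precursor markers, Vim was at 5396 counts per 1000000 (CPM, with library totals adjusted by TMM factors) at 37 °C and 5166 at 39 °C, while Nes fell from 467 to 108 and Sox2 rose from 55.4 to 76.5 (edgeR adjusted p 5.80e-15 and 5.33e-08). Pax6 had 3 UMIs and Fabp7 had 6 over all libraries. Msi1, with 12 UMIs in all, was also called higher, and Vim was not called. The 5 mesenchymal markers were mixed: Col1a1 (1027 CPM at 37 °C and 575 at 39 °C) and Col1a2 (678 and 182) were abundant, Col3a1 was at 11.9 and 1.01 CPM, and Dcn and Lum had 22 and 1 UMIs in all.

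The 9 genes fell into 3 ranges of level, which differed by orders of magnitude. Because the kit counts transcript ends, 1 UMI per molecule, levels of different genes were compared as plain CPM (UMIs per 1000000 UMIs of the library, with no division by length). At 37 °C the order of mean levels was Maoa (122 plain CPM), Spr (84.0), Qdpr (40.8), Pts (21.2), Gch1 (2.61), Slc18a2 (0.502), Th (0.0266), and Slc6a3 and Ddc, each at 0.00882. Neighbours from Maoa to Th did not overlap between libraries in that order, whereas Th, Slc6a3 and Ddc did. At 39 °C Spr (129 plain CPM) stood above Maoa (109), with no overlap, and the rest of the order was the same, from Qdpr (27.8) and Pts (22.8) through Gch1 (1.54) and Slc18a2 (0.669) to Th (0.0364), Slc6a3 (0.00890) and Ddc, which had no UMI. Maoa and Spr together made up most of the UMIs of the 9 genes, 45.0 and 31.0% at 37 °C and 37.6 and 44.3% at 39 °C.

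**Figure D1:**
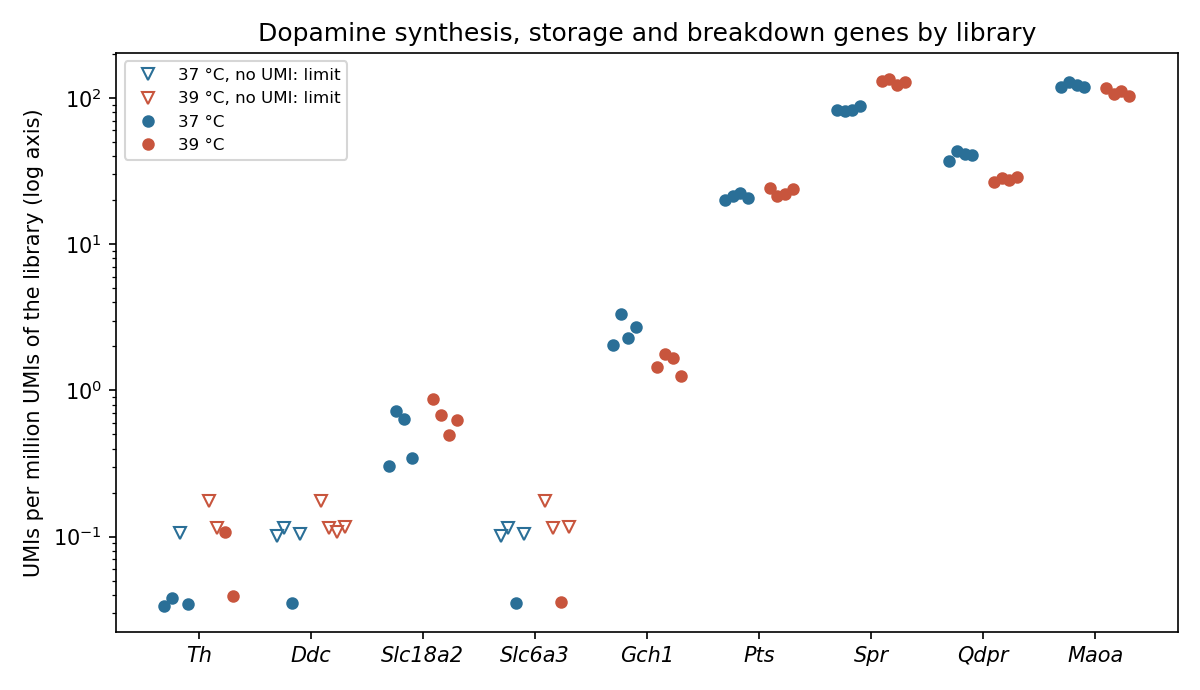
Level of the 9 genes in each of the 8 libraries, as plain CPM (UMIs per 1000000 UMIs of the library) on a log axis; blue is 37 °C and red is 39 °C. Open triangles mark libraries with no UMI, at the level that 3 UMIs would give (0.101 to 0.175 CPM), so they are upper limits. Th, Ddc and Slc6a3 lie at or under these limits, and Maoa and Spr between 82.0 and 134 CPM.

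Th, which makes L-DOPA (ENSMUSG00000000214, GRCm38 chromosome 7, 142892752 to 142931128, minus strand), gave 7 UMIs in all. They came as 1, 1, 0 and 1 UMIs in 37 °C replicates 1 to 4 and as 0, 0, 3 and 1 in 39 °C replicates 1 to 4. The pooled level was 0.0265 plain CPM at 37 °C (95% exact Poisson interval 0.00546 to 0.0774) and 0.0411 at 39 °C (0.0112 to 0.105). The groups overlapped, and the difference in mean level of 0.00985 plain CPM did not pass an exact permutation test (two-sided, 70 assignments of libraries, p = 0.714), a design in which p cannot go under 0.0286. The ratio of pooled rates was 1.55 with a 95% exact interval from 0.262 to 10.6, so a rise of several fold would not be detectable at this depth. All intervals and limits for pooled UMIs or pooled cells cover counting error only, not the spread between libraries. Without 39 °C replicate 3 the difference turned negative, -0.0136 plain CPM (exact permutation p = 0.743, where the smallest possible value is 0.0571).

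Ddc, the decarboxylase that follows Th (ENSMUSG00000020182, chromosome 11, 11814101 to 11898144, minus strand), gave 1 UMI, in 37 °C replicate 3. Its 0 UMIs at 39 °C allow up to 0.0308 plain CPM over the 4 libraries. Slc6a3, the dopamine transporter (ENSMUSG00000021609, chromosome 13, 73536747 to 73578672, plus strand), gave 1 UMI in replicate 3 of each temperature. Neither difference passed the exact permutation test (p = 1 for both), and at these counts the test has no power to show one. For Slc6a3 the interval of the rate ratio ran from 0.0148 to 91.3.

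The 7 UMIs of Th lay in 7 different cells, 3 of 8550 at 37 °C (0.0351%, 95% exact binomial interval 0.00724 to 0.103%) and 4 of 9801 at 39 °C (0.0408%, 0.0111 to 0.104%). None of the 7 cells held a UMI of Ddc, Slc18a2, Slc6a3 or Gch1. These genes were rare over all kept cells as well. Slc18a2 was in 0.643% of cells at 37 °C and 0.633% at 39 °C, and Gch1 in 3.12 and 1.43%. Their absence from 7 cells is thus uninformative. Of the same 7 cells 6 held Spr, 5 Maoa, 4 Pts and 3 Qdpr. Over all kept cells Spr was in 60.3 and 61.3% and Maoa in 70.1 and 53.7%. Pts was in 23.4 and 19.1% and Qdpr in 39.0 and 22.3%. The totals of the 7 cells ran from 4986 to 33351 UMIs. The 4 at 39 °C were all assigned to G1, and 3 of them came from replicate 3. In the 39 °C libraries 82.5 to 85.4% of all kept cells were in G1. The 3 cells with Th at 37 °C were assigned to G2M (2 cells) and S (1 cell). A cell with UMIs of more than 1 of Th, Ddc and Slc6a3 was not found, and 5 cells at each temperature held a UMI of any of the 3. With so few cells an overlap could hardly have been seen.

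For scale, 10 genes used in distant tissues were read in the same way. Of these, 5 had 0 UMIs (Ins2, Gcg, Hbb-bt, Cd3e and Umod), 3 had 2 (Alb, Myh6 and Sftpc), and Myl2 and Hba-a1 had 33 and 576. Th, with 7 UMIs, lay below Myl2 and Hba-a1 and above the genes with 0 or 2. Ddc and Slc6a3, with 1 and 2, lay no higher than the 3 genes with 2. Hba-a1 was counted in every library, with 34 to 123 UMIs, and whether its UMIs are stray was not tested. As these genes ranged from 0 to 576 UMIs, counts as low as 7 cannot be told apart from stray ones. Slc18a2 (119 UMIs in all) and Gch1 (444) also lay below Hba-a1, so this comparison does not set them apart from stray UMIs either. The source of stray UMIs was not tested. Transcripts of the 3 listed serotonin genes were also few: Tph2 had 0 UMIs, Tph1 had 2 and Slc6a4, the serotonin transporter, had 14. The receptors Drd1, Drd2, Drd3 and Drd5 had 0 UMIs and Drd4 had 2. Ppp1r1b, a phosphoprotein of neurons that respond to dopamine, had 8, and Gpr37 had 0.

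Slc18a2, the vesicle transporter (ENSMUSG00000025094, chromosome 19, 59260896 to 59296012, plus strand), was low but had UMIs in every library. It gave 9, 19, 18 and 10 UMIs at 37 °C and 15, 18, 14 and 16 at 39 °C. Its scaled level was 0.507 ± 0.210 CPM at 37 °C, against 0.661 ± 0.148 CPM at 39 °C (SD over n = 4 libraries each). The groups overlapped, and the log2 fold change of 0.36 ± 0.30 (SE) did not pass (edgeR adjusted p = 0.318). A UMI of Slc18a2 was found in 55 cells at 37 °C and 62 at 39 °C, and no cell had more than 2. Exons of an annotated antisense gene, Gm29261, overlap those of Slc18a2.

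For the comparison of temperatures, the UMIs of each library were added up and entered into edgeR for the 15810 genes that averaged 1 or more counts in a library. The threshold for a call was an adjusted p under 0.05. Of the 9 genes, 6 passed this count minimum and 3 (Th, Ddc and Slc6a3) did not. Of the 6, 1 was higher at 39 °C (Spr), 3 were lower (Gch1, Qdpr and Maoa), and Slc18a2 and Pts were not called. Over all genes tested, 31.5% were called higher and 30.5% lower, so calls are common in these data and 4 of 6 is no sign of anything particular to these genes. The study's limits for its bulk RNA-seq were stricter, a log2 fold change beyond 1.5 in either direction with an adjusted p under 0.01. Applied here to sums of single cells, they called 0 of the 6 by edgeR, against 5.83% of all genes. By DESeq2 they also called 0 of the 6. At an unadjusted p under 0.05, 4 of the 6 passed with either tool. For 4 of the 6, all libraries of one temperature lay above those of the other, against 56.7% of all genes. The median log2 fold change of the 6 was -0.06 and that of all genes tested 0.02.

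Spr, which makes the last reduction to tetrahydrobiopterin (ENSMUSG00000033735, chromosome 6, 85130176 to 85137766, minus strand), rose. It stood at 83.7, 83.4, 82.6 and 90.1 scaled CPM in 37 °C replicates 1 to 4 and at 128, 134, 122 and 127 in 39 °C replicates 1 to 4. Every 39 °C library was above every 37 °C library. Mean levels were 84.9 ± 3.48 and 128 ± 4.81 CPM (SD, n = 4). The log2 fold change was 0.59 ± 0.05 (SE), with an adjusted p of 1.73e-09 in edgeR.

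Gch1, the first enzyme of the same route (ENSMUSG00000037580, chromosome 14, 47153895 to 47189413, minus strand), fell. It gave 61, 88, 65 and 79 UMIs at 37 °C and 25, 47, 47 and 32 at 39 °C, or 2.09, 3.41, 2.28 and 2.77 scaled CPM against 1.42, 1.78, 1.66 and 1.23. Libraries did not overlap, and those at 37 °C were the more spread. The means were 2.64 ± 0.590 and 1.52 ± 0.245 CPM (SD, n = 4). The log2 fold change was -0.77 ± 0.17 (SE), with an adjusted p of 7.27e-04 in edgeR. In fold terms Gch1 was 1.71 times as high at 37 °C, the largest change of the 6 genes tested in these sums.

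Qdpr, which recycles the cofactor (ENSMUSG00000015806, chromosome 5, 45434021 to 45450236, minus strand), also fell. Its scaled CPM were 37.7, 44.1, 41.3 and 41.7 at 37 °C and 26.0, 28.2, 27.5 and 28.3 at 39 °C. Every 39 °C library was below every 37 °C library. The means were 41.2 ± 2.64 and 27.5 ± 1.02 CPM (SD, n = 4). The log2 fold change was -0.58 ± 0.05 (SE), with an adjusted p of 1.42e-08 in edgeR. Exons of an annotated antisense gene, Gm42413, overlap those of Qdpr.

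Pts, the enzyme between Gch1 and Spr (ENSMUSG00000032067, chromosome 9, 50521617 to 50528724, minus strand), was not called. It stood at 20.5, 21.8, 22.3 and 21.2 scaled CPM at 37 °C and at 23.7, 21.2, 21.7 and 23.5 at 39 °C. The groups overlapped, with means of 21.4 ± 0.777 and 22.5 ± 1.25 CPM (SD, n = 4). The log2 fold change was 0.07 ± 0.05 (SE), with an adjusted p of 0.296 in edgeR. The 4 cofactor genes thus did not move as one: 1 rose, 2 fell and 1 was not called.

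Maoa, the breakdown enzyme (ENSMUSG00000025037, chromosome X, 16619698 to 16687818, plus strand), fell by a small amount. Its scaled CPM were 121, 131, 121 and 121 at 37 °C and 113, 107, 111 and 102 at 39 °C, with no overlap. The means were 123 ± 4.74 and 108 ± 4.81 CPM (SD, n = 4). The log2 fold change was -0.19 ± 0.05 (SE), with an adjusted p of 0.00172 in edgeR. By GENCODE M21 positions, no exon of any of the 9 genes overlaps a same-strand exon of another gene of the deposited matrices. Annotated genes outside the matrices were not checked.

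Phases of the cell cycle differed between temperatures, which touches every sum over all cells. With phases assigned by expression scores, 20.6 to 28.7% of the cells of a library were in G1 at 37 °C and 82.5 to 85.4% at 39 °C, and none of the 9 genes is in the lists behind the scores. Sums were therefore also made over cells of 1 phase. In G1 cells the same 4 of 6 genes were called in the same directions, where 24.8% of the 14712 genes tested were higher and 22.4% lower. Spr was at 91.8 ± 4.16 CPM in the libraries of 37 °C and 133 ± 4.06 in those of 39 °C (SD, n = 4). On the log2 scale it changed by 0.54 ± 0.05 (SE), with an adjusted p of 1.40e-08 in edgeR. Maoa fell from 143 ± 3.14 to 109 ± 6.54 CPM, a log2 fold change of -0.39 ± 0.05 (adjusted p = 2.01e-06), further than its -0.19 over all cells. Qdpr fell from 33.1 ± 3.50 to 26.2 ± 1.45 CPM, a log2 fold change of -0.33 ± 0.07 (adjusted p = 7.94e-04), less than its -0.58 over all cells. With phases scored in each library by itself, the G1 value of Qdpr was -0.49 ± 0.08, nearer to that of all cells. That of Maoa was -0.37 ± 0.05. Values of G1 cells and of all cells share their cells in part, and the difference between them was not tested.

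Gch1 in G1 cells rested on 57 UMIs at 37 °C and 115 at 39 °C, and its libraries overlapped. It changed there by -0.76 ± 0.25 on the log2 scale (SE), with an adjusted p of 0.0163 in edgeR. The call was lost without 37 °C replicate 2 (adjusted p = 0.0723), without 37 °C replicate 4 (0.0837) and with phases scored in each library by itself (0.0874), always with the same sign. Pts (-0.14 ± 0.08, adjusted p = 0.152) and Slc18a2 (0.68 ± 0.53, adjusted p = 0.315) were not called in G1 cells.

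In S cells Spr was higher (0.31 ± 0.06 on the log2 scale, edgeR adjusted p = 2.12e-04), and Qdpr (-0.20 ± 0.08, adjusted p = 0.0465) and Maoa (-0.17 ± 0.06, adjusted p = 0.0330) were lower. Background rates there were 20.1% higher and 23.4% lower. In G2M cells, of which the 39 °C libraries held only 29 to 187 each, Spr was higher (0.39 ± 0.10, adjusted p = 0.00369) and Qdpr lower (-0.57 ± 0.14, adjusted p = 0.00182), against 13.2% and 16.5% of all genes. Maoa in G2M cells (-0.15 ± 0.09, adjusted p = 0.236) and Gch1 in S cells (-0.32 ± 0.33, adjusted p = 0.463) or G2M cells (0.03 ± 0.48, adjusted p = 0.980) were not called. Spr and Qdpr were thus called in the same direction in each of the 3 phases.

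**Figure D2:**
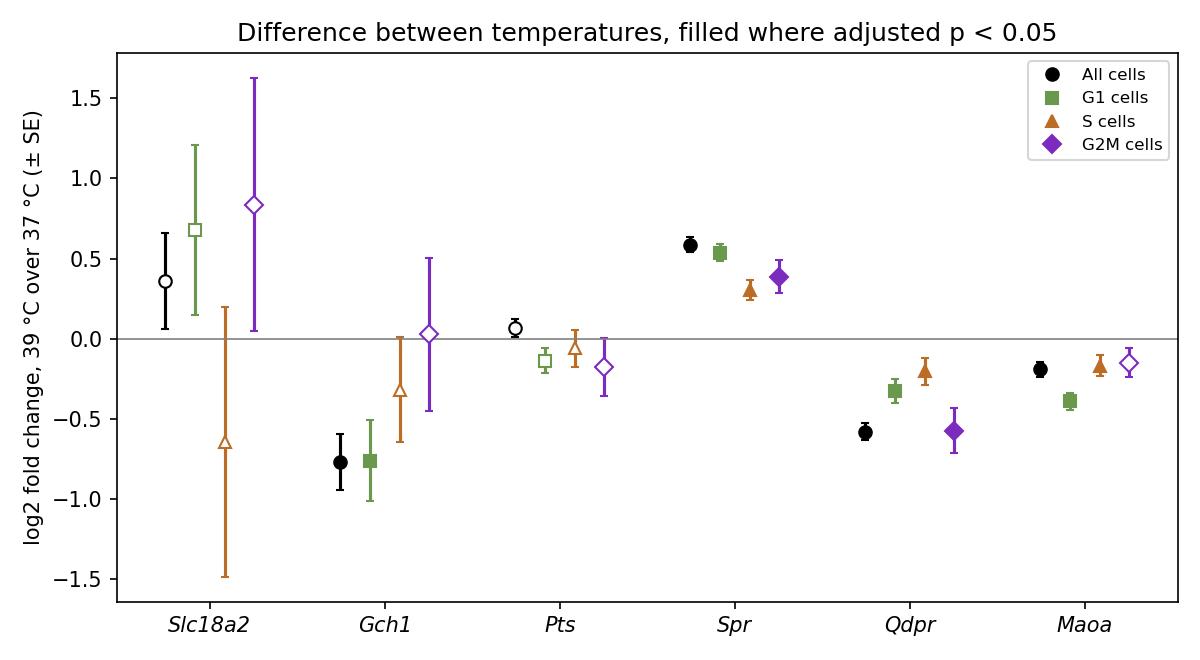
log2 fold change of 39 °C over 37 °C, with bars of 1 SE, for the 6 genes above the count minimum in all cells (black circles) and in cells assigned to G1, S and G2M. Filled symbols have an adjusted p under 0.05. Spr lies above 0 and Qdpr below 0 in all 4 sets, and the wide bars of Slc18a2 and Gch1 come with their few UMIs.

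Phases were next compared within each temperature, with library as a block. At 37 °C, S against G1 called 1 of 6 genes higher (24.3% of all genes) and 2 lower (21.4%), and G2M against G1 called 1 higher (23.2%) and 3 lower (21.3%). Qdpr was the one higher in both. It stood at 32.6 ± 3.60 CPM in G1, 46.6 ± 2.00 in S and 40.4 ± 2.83 in G2M cells (SD, n = 4), log2 differences from G1 of 0.52 ± 0.06 (SE, edgeR adjusted p = 3.99e-10) and 0.30 ± 0.07 (adjusted p = 2.66e-05), each in 4 of 4 libraries. Maoa went the other way, with 141 ± 3.34 CPM in G1, 129 ± 5.79 in S (log2 difference -0.12 ± 0.04, adjusted p = 0.00422) and 107 ± 6.95 in G2M cells (-0.41 ± 0.04, adjusted p = 6.10e-25). Pts was lower in S (-0.24 ± 0.08, adjusted p = 0.0106) and in G2M (-0.39 ± 0.08, adjusted p = 6.82e-06), and Spr lower in G2M (-0.21 ± 0.05, adjusted p = 2.52e-05) but not called in S (-0.04 ± 0.04, adjusted p = 0.492). The S calls of Maoa and Pts were lost without 37 °C replicate 1 (-0.10, adjusted p = 0.0784, and -0.11, adjusted p = 0.368), and that of Maoa also without the library block (adjusted p = 0.0626).

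At 39 °C, S against G1 called 1 of 6 genes higher (17.5% of all genes) and 1 lower (20%). Qdpr was higher again, with 36.0 to 45.7 CPM in S cells against 24.8 to 28.2 CPM in G1 cells, a log2 difference of 0.64 ± 0.08 (SE, edgeR adjusted p = 1.40e-13) seen in 4 of 4 libraries. Spr fell from 134 ± 4.43 to 111 ± 5.81 CPM (-0.27 ± 0.05, adjusted p = 2.29e-07). Maoa was at 110 ± 6.45 and 118 ± 6.84 CPM and not called (0.11 ± 0.05, adjusted p = 0.0555), though it passed with RLE factors (adjusted p = 0.0176), with the filterByExpr filter (0.0171) and without 39 °C replicate 1 (0.0160) or 3 (0.0289). G2M against G1 at 39 °C called none higher (10.7% of all genes) and 1 lower (12%), Spr at -0.35 ± 0.08 (adjusted p = 3.91e-04), and this call was lost without 39 °C replicate 3 (-0.24, adjusted p = 0.0948). At an unadjusted p under 0.05, 2 of the 6 genes passed there.

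Whether the step from G1 to another phase differed between temperatures was tested with an interaction term. For S cells it was called for 2 of 6 genes, against 12.8% of all genes. The step of Spr was lower at 39 °C by -0.23 ± 0.06 on the log2 scale (SE, edgeR adjusted p = 0.00460), and that of Maoa higher by 0.23 ± 0.06 (adjusted p = 0.00391). The Maoa call was lost without 39 °C replicate 2 (0.15, adjusted p = 0.141). For G2M cells 0 of 6 were called by edgeR, 1 at an unadjusted p under 0.05, against 7.69% of all genes. Maoa was nearest there (0.26 ± 0.09, adjusted p = 0.0591) and passed with RLE factors (0.32, adjusted p = 0.0138) and without 39 °C replicate 1 (0.26, adjusted p = 0.0447).

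**Figure D3:**
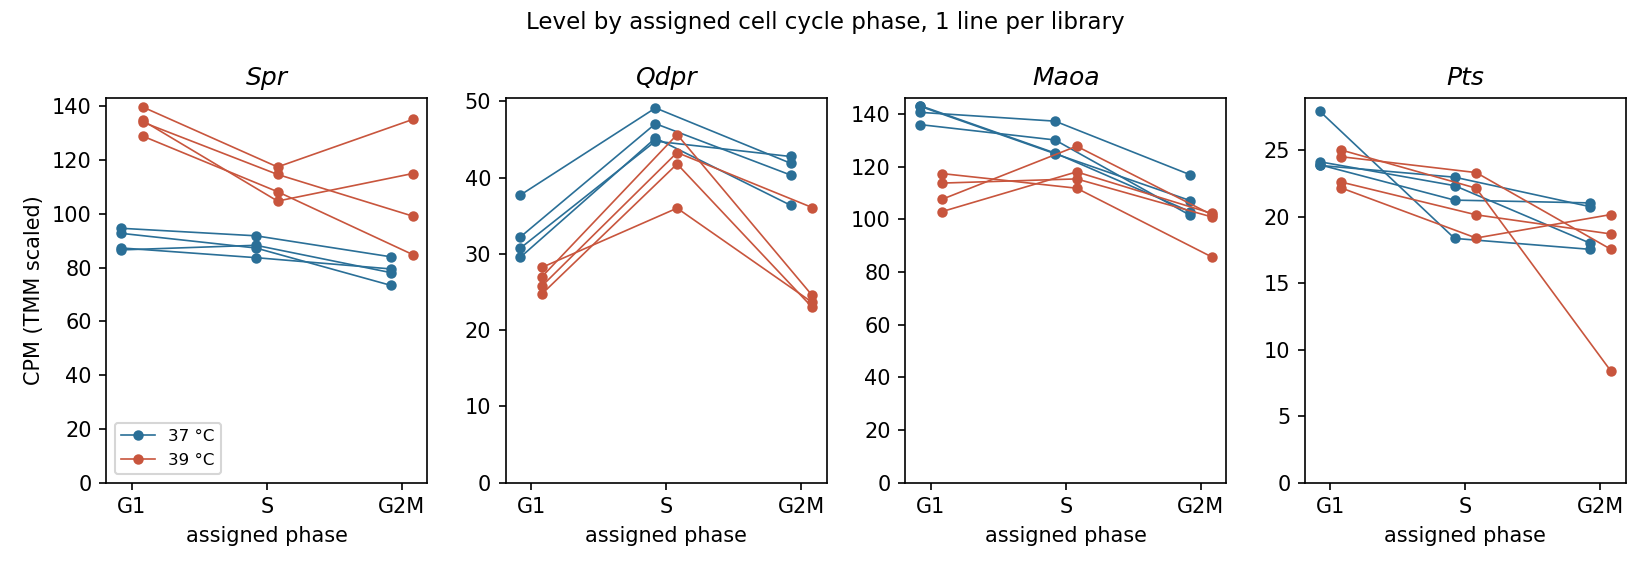
Scaled CPM of Spr, Qdpr, Maoa and Pts in cells assigned to G1, S and G2M, with 1 line for each library (blue, 37 °C; red, 39 °C). Qdpr peaks in S cells in all 8 libraries, Maoa declines from G1 to G2M at 37 °C, and the Spr lines of 39 °C lie above those of 37 °C in G1 and S. Scaling was done apart for each temperature, and for S and G2M, so the lines do not share a common scale. With both temperatures scaled together, Spr was at 91.8 and 133 CPM in G1 and at 88.8 and 109 in S, without overlap.

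The share of cells with at least 1 UMI of a gene depends on depth, so each cell was thinned to 5000 UMIs, which left out 668 cells at 37 °C and 1668 at 39 °C. Thinned shares of Spr were 34.0% ± 0.607 at 37 °C and 45.3% ± 1.05 at 39 °C (SD, n = 4), without overlap. Shares of Maoa were 44.1% ± 0.892 and 39.0% ± 1.19, those of Qdpr 18.5% ± 1.24 and 13.2% ± 0.662, and those of Gch1 1.35% ± 0.368 and 0.696% ± 0.179, all without overlap. For each of these 4 the two-sided exact permutation test gave p = 0.0286, the smallest it can give. The adjusted p over the 9 genes was 0.0643, so 0 of 9 passed after adjustment and 4 of 9 before it. Because of that floor, full separation of these 4 genes alone could not pass after adjustment. Pts (10.0% ± 0.336 and 10.8% ± 0.671, exact permutation p = 0.114) and Slc18a2 (0.267% ± 0.0980 and 0.328% ± 0.0759, exact permutation p = 0.343) overlapped. Without thinning, Spr was at 61.5% ± 6.47 and 64.7% ± 10.7 and overlapped (exact permutation p = 0.657). Maoa also overlapped then, at 71.2% ± 6.58 and 57.7% ± 12.4 (exact permutation p = 0.114), while Qdpr (40.3% ± 7.26 and 24.2% ± 6.15) and Gch1 (3.29% ± 1.07 and 1.57% ± 0.501) did not. The differences of Maoa and Qdpr, -5.10 and -5.32 percentage points with thinning, were -13.6 and -16.0 without it. The deepest and the shallowest library were both at 39 °C. Shares of cells with a UMI in a cell type that lacks these genes could not be given, since the series holds 1 line.

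**Figure D4:**
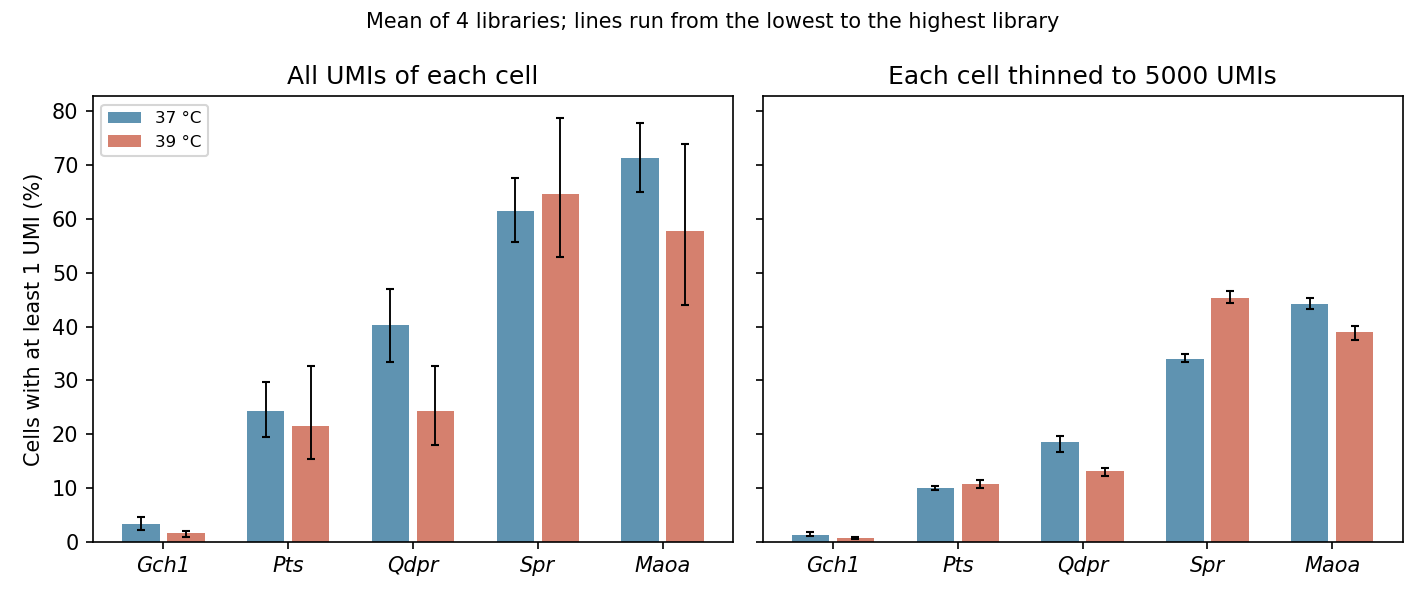
Share of cells with at least 1 UMI of 5 genes, with all UMIs of a cell (left) and after thinning each cell to 5000 UMIs (right). Bars are means of 4 libraries and start at 0, and lines run from the lowest to the highest library. For Spr the libraries of both temperatures overlap with all UMIs and separate after thinning (34.0 and 45.3%).

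Few cells held UMIs of the whole cofactor route, a count that cannot exceed the number of cells with Gch1. UMIs of Gch1, Pts, Spr and Qdpr were found together in 19 of 8550 cells at 37 °C and 6 of 9801 at 39 °C. Gch1 alone was seen in 267 cells (3.12%, 95% exact binomial interval 2.76 to 3.51%) at 37 °C and 140 (1.43%, 1.20 to 1.68%) at 39 °C. No cell had more than 4 UMIs of Gch1. These intervals cover counting error over pooled cells, not the spread between libraries. By library the share ran from 2.26 to 4.72% at 37 °C and from 0.859 to 2.03% at 39 °C. Spr and Maoa were found together in 3782 and 3512 cells. Shares of single cells are limited by depth and say nothing of cells that express a gene without giving a UMI.

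The wider pathway list held 14 genes: regulators of the cofactor, other enzymes that break dopamine down or turn it into noradrenaline and adrenaline, and other transporters. Of these, 9 passed the count minimum, and 2 were higher, 2 lower and 5 not called in all cells, where 31.5% of all genes tested were higher and 30.5% lower. Aldh2, an aldehyde dehydrogenase that clears the aldehyde Maoa leaves, rose from 401 ± 11.9 to 826 ± 49.5 CPM (SD, n = 4), or by 1.04 ± 0.05 on the log2 scale (SE), with an adjusted p of 3.33e-12 in edgeR. Slc29a4, a low-affinity monoamine transporter, rose from 3.08 ± 0.497 to 7.70 ± 1.52 CPM (1.29 ± 0.13, adjusted p = 6.32e-08). Akr1b3, an aldose reductase that acts on the same aldehydes, fell from 101 ± 13.2 to 58.8 ± 2.39 CPM (-0.78 ± 0.07, adjusted p = 8.91e-09).

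Gchfr, the feedback regulator of Gch1, was named after its value was seen: it fell from 115 ± 7.63 to 73.9 ± 10.3 CPM (SD, n = 4), a log2 difference of -0.63 ± 0.08 (edgeR adjusted p = 5.14e-07), and it was also lower in G1 cells (-0.45 ± 0.08, adjusted p = 3.38e-05).

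Pcbd2, at 81.8 and 90.5 CPM, was not called (0.15 ± 0.08, adjusted p = 0.0979). Its paralog Pcbd1, the carbinolamine dehydratase that works beside Qdpr, had 1 UMI in all. Dbh and Pnmt, which carry dopamine on to noradrenaline and adrenaline, had 1 UMI each, as did Slc22a3. Maob, the second monoamine oxidase, had 79 UMIs, against 24405 of Maoa, and was not called in all cells (-0.92 ± 0.42, adjusted p = 0.0638) though lower in G1 cells (-1.93 ± 0.48, adjusted p = 0.00206), where it rested on 47 UMIs. Slc18a1, the other vesicle transporter, had 60 UMIs and Slc6a2, the noradrenaline transporter, had 11.

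**Figure D5:**
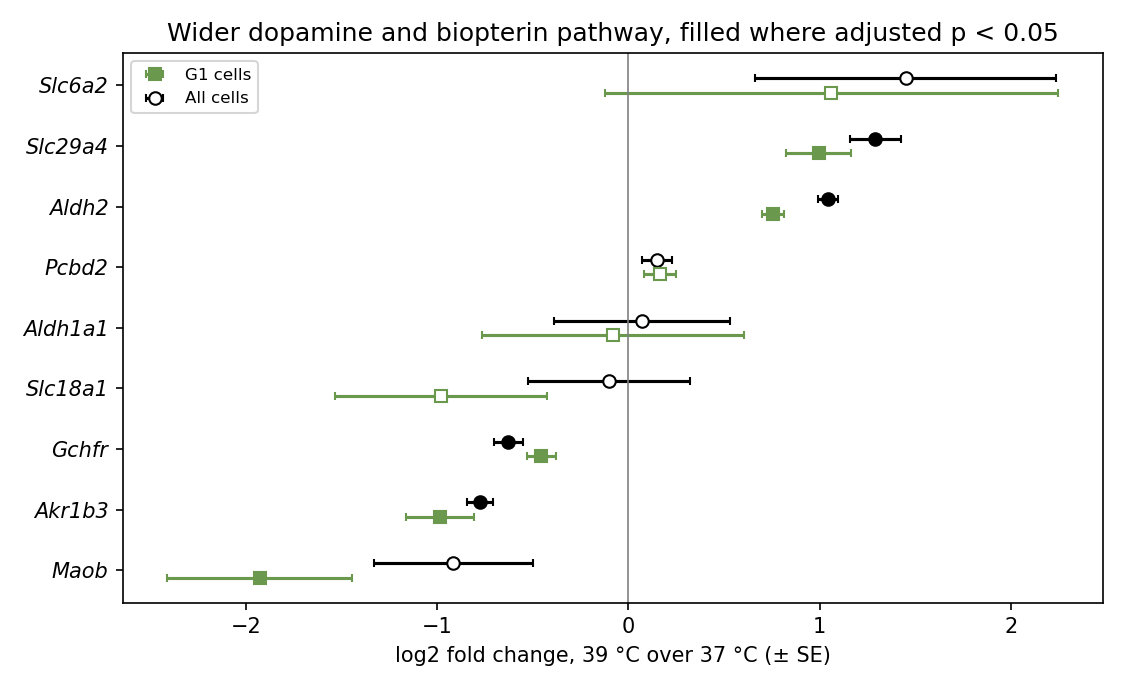
log2 fold change of 39 °C over 37 °C, with bars of 1 SE, for the 9 genes of the wider pathway above the count minimum, in all cells (circles) and in G1 cells (squares). Filled symbols have an adjusted p under 0.05. Aldh2 and Slc29a4 lie above 0 in both sets, and Akr1b3 and Gchfr below 0 in both.

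The factors known to specify midbrain dopamine neurons were mixed in level. Foxa2 (14.2 and 12.8 CPM), En1 (9.72 and 8.72) and Nr4a2 (3.71 and 4.43) were measured at both temperatures, whereas Foxa1, Lmx1a and Otx2 had 0 UMIs, Pitx3 had 4, Lmx1b 8 and En2 9. Of the 9 factors 5 passed the count minimum and 1 was called in all cells, Foxa2, lower (log2 -0.16 ± 0.06, edgeR adjusted p = 0.0391), against 31.5% of all genes higher and 30.5% lower. In G1 cells 3 factors were tested, of which Nr4a2 was higher (1.06 ± 0.22, adjusted p = 4.04e-04) and En1 lower (-0.32 ± 0.11, adjusted p = 0.0265), against 24.8 and 22.4% of all genes. Nr4a2 is known to drive Th and Slc6a3 in midbrain neurons. Th in G1 cells showed no detectable difference: its 0 UMIs at 37 °C allow up to 0.126 plain CPM, above the 0.0483 of its 4 UMIs at 39 °C, 3 of which came from replicate 3. Markers of other catecholamine neurons were at or near 0 apart from Gata3: Phox2a and Hand2 had 0 UMIs and Gata3 had 1374. Of the 5 astrocyte markers, Gfap had 3 UMIs and Aqp4 had 2, while Aldh1l1 had 855 (4.26 and 3.84 CPM), Slc1a2 70 and Maob 79. The summed level of the list, mostly Aldh1l1, was 3.97 to 5.57 plain CPM at 37 °C and 4.19 to 4.74 at 39 °C.

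For the 4 members above 5 CPM, the genes with the highest correlation among libraries of 1 temperature were listed. The measure was Pearson's r of log2 CPM after subtracting the mean of each temperature, over 9698 genes. For Spr the nearest were Ndufs1 (r = 0.974), Il3ra (0.972) and Map2k2 (0.954). For Qdpr they were Deaf1 (0.981), Med10 (0.979) and Sgpl1 (0.965). For Pts they were Sppl3 (0.987), Ndufaf5 (0.975) and Bbs4 (0.973), and for Maoa Dtx4 (0.977), Snapc1 (0.976) and Slc17a5 (0.975). The number of genes with r over 0.9 was 23 for Spr, 40 for Qdpr, 40 for Pts and 63 for Maoa. Without that subtraction it was 2522, 2650, 10 and 668. Of the 12 named genes 6 had a negative r without it: Ndufs1 (-0.83) and Map2k2 (-0.741) with Spr, Deaf1 (-0.756) and Sgpl1 (-0.884) with Qdpr, Ndufaf5 (-0.34) with Pts and Slc17a5 (-0.744) with Maoa, and Snapc1 was at 0.0878. These genes thus did not track the member across both temperatures. These are descriptions over 8 libraries that share their depth and scaling. The highest of 9698 values over so few libraries can be this high by chance. The number of genes over 0.9 that chance would give was not computed.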

How the data were processed

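Single-cell RNA-seq libraries of SN4741 (Chromium 3' V3; 4 at 37 °C and 4 at 39 °C, grouped by title and treatment) were aligned by the authors to mm10 with Cell Ranger 3.0.1, per the submitters' processing notes, and deposited as raw UMI counts per gene and cell, with no normalization. The annotation version is not given in the sources used here. The study's limits on cells were used (at most 15% mitochondrial UMIs, 200 to 6000 genes). No doublet caller was used beside the upper limit. Phases were assigned with Seurat 5.3.0 on all kept cells (42 of 43 S and 52 of 54 G2M genes found).

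Counts were summed per library, or per library and phase, and genes that averaged 1 or more counts per library were tested with edgeR 4.0.16 (R 4.3.3; TMM, glmQLFit, glmQLFTest, Benjamini-Hochberg). SE is the log2 fold change over the square root of F. Cells were thinned by the expected chance of keeping a UMI. Exact permutation tests used scipy 1.17.1 and Python 3.11.15. The fits were checked on simulated data. Phase fits kept library as a block. Limits for 0 counts are 3 counts.

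Gene positions are from GENCODE M21 (GRCm38) and promoters from RefSeq (GRCm38.p6), where all 9 members matched. Alternatives were other scaling (RLE, upper quartile, totals only), filterByExpr or no filter on low counts, DESeq2 1.42.0, a block for the replicate number, other cell filters, other phase scoring, other thinning and leaving out each library. Fits in S and G2M cells and the interaction tests were chosen after seeing the data. Named beyond the 9 members were genes of the fixed lists with an adjusted p under 0.05 and at least 5 CPM, up to 4 per list, and the 3 genes most alike for each member above 5 CPM. Other list genes given without a call, or called under 5 CPM, were named after their values were seen. Some genes first placed in the lists are not reported here, and list counts omit them. Members and lists were chosen with earlier results of these data known.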

Additional observations from a re-analysis of the deposited data

Results flagged for a closer look

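In groups of 4 libraries, 1 library stood apart from the other 3 in 6 of 42 groups checked by Dixon's test, and chance alone flags about 1 in 20 groups. For members these were the highest 37 °C libraries for Spr (replicate 4, 90.1 CPM), Maoa (replicate 2, 131 CPM) and, in G1 cells, Pts (replicate 1, 28.5 CPM). In the wider pathway Akr1b3 in 37 °C replicate 3 (120 CPM) was flagged. Aldh1a1 was flagged in 39 °C replicate 1 (3.97 CPM, against 0.425 to 0.925 in the other 3). Slc6a2 was flagged in 37 °C replicate 1, with 0 UMIs against 1 UMI in each of replicates 2, 3 and 4. That is a difference of single molecules. None of the calls of Spr or Maoa between temperatures in all cells was lost when any library was left out.

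The step from G1 to S cells differed between temperatures by the interaction term for Spr (-0.23 on the log2 scale, 39 °C minus 37 °C) and Maoa (0.23), and, outside the members, for Gchfr (0.23). The Gchfr call was lost without 37 °C replicate 3 (0.18, edgeR adjusted p = 0.0597) or 39 °C replicate 2 (0.18, adjusted p = 0.0872).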

How the results depend on the processing

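In all cells, the calls of Spr, Gch1, Qdpr and Maoa kept their direction and their side of the threshold under each of the 18 other settings listed in the methods, S and G2M cells aside. The number of members called was 2 in G2M cells, in place of 4. In S or G2M cells some log2 fold changes turned sign against all cells: Slc18a2 -0.64 (S), Gch1 0.027 (G2M) and Pts -0.061 (S) and -0.18 (G2M). With 1 library left out, members called ranged from 1 to 3 for S against G1 at 37 °C and from 0 to 1 for G2M against G1 at 39 °C, where the difference of Qdpr ranged from -0.19 (without 39 °C replicate 3) to 0.17. For the interaction terms they ranged from 1 to 2 (S) and from 0 to 1 (G2M), the latter also 1 with RLE factors. The differences of rare genes turned sign: with 1 library left out that of Th ranged from -0.0136 to 0.0220 plain CPM and that of Slc6a3 from -0.00882 to 0.00890. The share difference of Pts, 0.716 percentage points, turned to -2.76 without thinning and -1.13 in G1 cells. The cause was not tested in any of these. With 1 library left out the smallest permutation p is 0.0571, so calls of shares were not counted there, and Ddc has no value without 37 °C replicate 3, its only UMI.

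The replicate number showed no clear pairing: same-numbered libraries correlated at -0.106, -0.0822, -0.0696 and 0.197 in their deviations over 10880 genes. The replicate 4 libraries were each other's best partner. Weak correlations cannot show that libraries were prepared apart. With it as a block, 4 members were called in all cells and 4 in G1 cells, as without it, and 4 wider pathway genes, as without it. In the wider list the count ran from 4 to 6 over all settings. Depth limits what can be said of Th, Ddc and Slc6a3, and temperature cannot be told apart from serum.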
